A study of Mus musculus with 13 samples.

Results

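Among the 13 libraries of sorted neonatal microglia in this series, 3 carry titles that mark them as excluded: control library CON 6 and maternal immune activation libraries MIA 6 and MIA 7. The title mark defines them, and they were set, gene by gene, against the other 10 libraries, called retained here. Why they were excluded is not stated in the sources used here; if it rested on these same values, the tests below are not independent of it. RNA came from microglia taken from whole mouse brain with magnetic beads against CD11b, a surface integrin of myeloid cells. The pups were at postnatal day 4 by the titles, and at days 3 to 5 by the series text.

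The retained libraries were 5 from control pups (CON 1 to CON 5) and 5 from pups of dams with maternal immune activation (MIA 1 to MIA 5). CON 6 therefore stood against 5 retained CON libraries, and MIA 6 and MIA 7 against 5 retained MIA libraries. All 13 shared 1 protocol in the labels: brains were not perfused, the meninges were taken off, papain digestion ran at 37 °C, and cDNA was primed on poly(A) tails. The sources used here do not state strain, sex, litter, sequencing batch or the agent that the dams received. Nothing in the labels says that the libraries came from separate animals, so p-values measure only the spread between these libraries.

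Microglia are the resident macrophages of the brain, and they lie close to small vessels. The wall of a brain capillary is a tube of endothelial cells, joined by tight junctions into the blood-brain barrier, with mural cells (pericytes, and smooth muscle on larger vessels) wrapped around it. Neither cell type is the target of a CD11b selection. In bulk RNA, fewer cells of a type and less RNA per cell cannot be told apart.

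None of 5 measures of the libraries as a whole separated the excluded ones at an adjusted exact permutation p under 0.05. Totals were 25387100 to 35593500 counts, and 25387100 to 30486100 in the excluded 3. The share of counts from the mitochondrial genome was 2.20 to 3.02% in the excluded and 2.28 to 4.47% in the retained libraries, with an exact permutation p of 0.0476 within groups, or 0.238 after Benjamini-Hochberg adjustment over 5 measures. CON 6, at 2.65%, lay inside the retained CON range of 2.28 to 3.34%. MIA 6 and MIA 7, at 2.20 and 3.02%, lay below all 5 retained MIA libraries (3.54 to 4.47%). For the other 4 measures (total counts, genes detected, and the shares taken by the top gene and the top 100 genes) the adjusted exact permutation p was 0.529 or more. The smallest p this design allows is 0.00794. CON 1 and CON 2 stood apart among the retained libraries, with immediate early gene levels of 5.98 and 6.02 in mean log2 CPM (counts scaled to library size) against 7.62 to 8.07 in the other 11. No pair of libraries agreed within sampling noise.

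The microglial label held in all 3 excluded libraries. Csf1r, the receptor for the survival factor of microglia, stood at 5044 CPM in CON 6, 5887 in MIA 6 and 5773 in MIA 7, against 4135 to 7707 in the retained libraries. Cx3cr1, the fractalkine receptor, stood at 4058, 4267 and 4458 CPM, against 3109 to 5706. Both genes of the excluded libraries lay inside the range of the retained ones. The 15 homeostatic microglial genes summed to 21880 to 24760 CPM in the excluded libraries, inside the retained range of 16430 to 32290 CPM.

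The first question was which genes separate the excluded from the retained libraries once group is taken into account. The mural cell list had the highest median log2 difference of the 31 gene lists: all 14 listed mural genes had positive log2 differences, and 9 of the 14 were higher in each excluded library than in any retained one. No single gene passed the threshold. With edgeR's quasi-likelihood test and Benjamini-Hochberg adjustment, 0 of 16787 genes (0%) were called, and the smallest adjusted p was 0.486. At an unadjusted p under 0.05 there were 496 genes, 228 higher and 268 lower, limma-voom called 0 and DESeq2 called 4. Among the 16787 genes, 1.36% were higher at an unadjusted p under 0.05 and 1.6% lower; 0.334% lay above all 10 retained libraries in all 3 excluded ones, and 0.203% below.

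Read against that background, the mural list had 11 of 14 genes higher at the unadjusted p and a median log2 difference of 0.74, while the median over all genes tested was -0.0044. Summed over its genes, the list held 1142 to 1340 CPM in the excluded and 414.8 to 959.5 CPM in the retained libraries. In mean log2 CPM it stood at 5.10 in CON 6, 4.85 in MIA 6 and 4.89 in MIA 7. The retained CON libraries ran from 3.53 to 4.41 and the retained MIA libraries from 3.93 to 4.62. All 3 excluded libraries therefore lay above all 10 retained ones, with no overlap. The lowest retained values were those of CON 1 and CON 2, and without these libraries the number of mural genes above all retained ones was again 9.

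**Figure D1:**
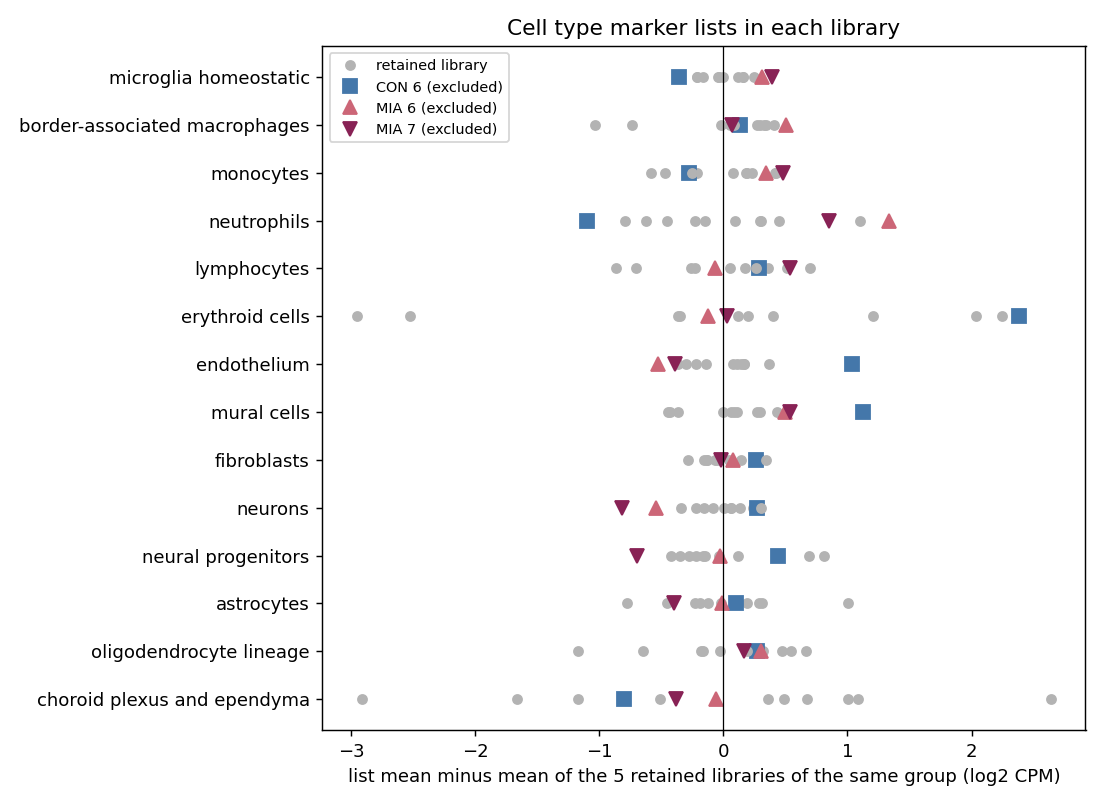
Level of 14 cell type marker lists in each library, plotted as the list's mean log2 CPM minus the mean of the 5 retained libraries of the same group, with grey circles for retained libraries and coloured symbols for CON 6, MIA 6 and MIA 7. In the mural row all 3 excluded libraries lie on the right, whereas in the endothelial row CON 6 lies on the right and MIA 6 and MIA 7 on the left.

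Pericyte genes came first. Rgs5, a regulator of G protein signalling that marks pericytes, stood at 712.4 CPM in CON 6, 593.2 in MIA 6 and 651.7 in MIA 7. In retained CON libraries it was 159.1, 209.3, 312.1, 385 and 360.7 CPM, and in retained MIA libraries 422.9, 277.7, 491.2, 385 and 414.2 CPM. The lowest excluded value was above the highest retained one, and the log2 difference was 0.91 ± 0.23 (SE; edgeR unadjusted p = 0.00178, adjusted p = 1.00).

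Pdgfrb, the receptor through which endothelial PDGF-B recruits pericytes, stood at 91.58 CPM in CON 6, 81.27 in MIA 6 and 90.93 in MIA 7. Its 10 retained values had a lowest of 32.06, a median of 52.6 and a highest of 65.37 CPM. Again the excluded libraries did not overlap the retained ones, and the log2 difference of 0.79 ± 0.15 (SE) had an edgeR adjusted p of 0.486. DESeq2 called Pdgfrb, with an adjusted p of 0.0130. Vtn, vitronectin, an adhesive matrix protein made by brain pericytes, stood at 250.1, 220.4 and 214.3 CPM in CON 6, MIA 6 and MIA 7, against 99.35 to 190.4 CPM in the retained libraries.

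Both genes of the ATP-sensitive potassium channel of pericytes separated the libraries in the same way. Kcnj8, the pore subunit, stood at 51.71, 47.1 and 43.71 CPM in CON 6, MIA 6 and MIA 7, against 16.58 to 39.03 CPM in the retained libraries. Abcc9, the sulfonylurea receptor subunit that partners it, stood at 43.13, 45.9 and 37.83 CPM, against 8.316 to 30.22 CPM. Its log2 difference, 1.05 ± 0.23 (SE), was the highest in the mural list, and its edgeR adjusted p was 0.693. Higd1b, a small mitochondrial protein gene used as a pericyte marker, was at 15.02 to 17.81 CPM in the excluded and 5.216 to 13.36 CPM in the retained libraries.

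**Figure D2:**
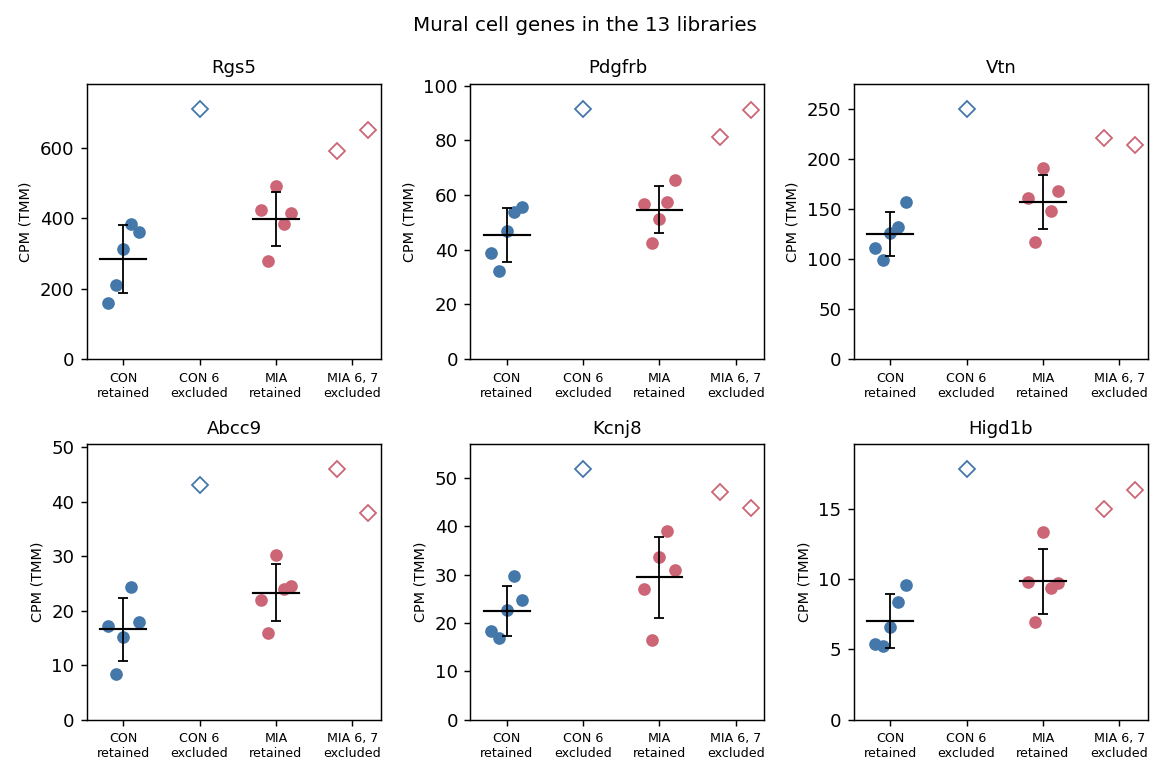
CPM (scaled by TMM) of 6 mural genes in the 13 libraries, with circles for retained and open diamonds for excluded libraries, and the horizontal line and bar giving the mean and SD of 5 retained libraries. In each panel the 3 diamonds lie above all 10 circles, as for Rgs5 at 593.2 to 712.4 CPM against at most 491.2.

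Some other genes of the mural list overlapped the retained libraries or came close to them. Acta2, smooth muscle actin, stood at 73.95 CPM in CON 6, 54.63 in MIA 6 and 77.65 in MIA 7, and CON 6 and MIA 6 lay inside the retained range of 25.86 to 77.3 CPM. Its log2 difference was 0.49 ± 0.25 (SE; edgeR unadjusted p = 0.0759). Tagln, the actin-binding transgelin, was at 11.25, 11.27 and 11.48 CPM, just above a highest retained value of 10.63. Anpep, a surface peptidase of pericytes that other cells also make, had the smallest difference of the list, 0.27 on the log2 scale, with an unadjusted p of 0.181. Notch3, the receptor that marks arterial mural cells, was 22.13 CPM in CON 6, 17.59 in MIA 6 and 13.43 in MIA 7. MIA 7 thus lay inside its retained range of 6.237 to 14.3 CPM.

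Genes were ranked only if they had a clear symbol and a mean of at least 5 CPM. Each excluded library also had to lie on the side of its group's retained median given by the log2 difference. Agreement of the excluded libraries among ranked genes was thus partly fixed by this rule. Ordered by unadjusted p, the 15 highest-ranked of these genes that were higher in the excluded libraries included 5 of the mural list: Pdgfrb, Vtn, Abcc9, Higd1b and Kcnj8. The others were taken by rank after their values were seen. Atp13a5, an ion-transporting ATPase enriched in brain pericytes, was at 28.29, 26.32 and 30.67 CPM in CON 6, MIA 6 and MIA 7, against 10.76 to 21.76 CPM in the retained libraries. Heyl, a transcription factor downstream of Notch, was at 28.29, 26.51 and 33.75 CPM, against 13.29 to 20.7. The excluded libraries were above all retained ones for both genes. DESeq2 called both, with adjusted p values of 0.0122 for Atp13a5 and 0.0130 for Heyl, and edgeR called neither.

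The ranking went on with receptors, matrix and contractile genes. Ednra, the endothelin receptor of vascular muscle, had a log2 difference of 0.82, S1pr3, a sphingosine phosphate receptor, 0.65, and Lamc3, a laminin chain of vascular basement membrane, 0.77. Myl9, the myosin light chain of smooth muscle, had 0.71 and Cald1, the actin-binding caldesmon, 0.66. Itih5, Hspa12a and Arhgap24 had 0.61, 0.75 and 0.54. None of these passed the edgeR threshold.

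Col1a1 and its neighbours in the fibroblast list had smaller differences. Col1a1, the main chain of type I collagen, stood at 89.2 CPM in CON 6, above all 5 retained CON libraries (53.58 to 63.85). MIA 6 and MIA 7, at 96.68 and 95.91 CPM, lay inside the retained MIA range of 71.39 to 113.9. The log2 difference was 0.32 ± 0.12 (SE), with an edgeR unadjusted p of 0.0169 and an adjusted p of 1.00. In the fibroblast list 8 of 11 genes were positive, with a median log2 difference of 0.20. Of these, 4 (Col1a1, Col1a2, Col3a1 and Lum) were higher at the unadjusted p, and 0 of 11 lay above all retained libraries.

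Border-associated macrophages, which live along vessels and meninges and also carry CD11b, did not separate the 3 excluded libraries as a set. Mrc1, the mannose receptor that marks them, stood at 756.4 CPM in CON 6, 891.8 in MIA 6 and 718.7 in MIA 7. The retained libraries ran from 419 CPM in MIA 3 to 906.6 in CON 5, with a median of 819, so all 3 excluded libraries lay inside that range. Its log2 difference was 0.04 ± 0.19 (SE), and its sign turned to -0.053 within CON alone. All 11 genes of the list were positive with a median of 0.14, and none was higher at the unadjusted p. In mean log2 CPM the list stood at 6.94 in CON 6 and 6.87 in MIA 7, inside the retained range of 5.77 to 7.21. MIA 6, at 7.31, lay above that range.

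Among genes lower in the excluded libraries, the choroid plexus and ependyma list had the lowest median of any list, -1.35, with 8 of 11 genes negative. Its median was -2.06 in CON 6 (10 of 11 negative) and -0.96 in MIA 6 and MIA 7 (8 of 11 negative). Its levels varied widely, from 1.22 to 6.77 in mean log2 CPM in retained libraries, with 3.33, 4.84 and 4.51 in the excluded 3, inside that range. None of its 11 genes was lower at the unadjusted p. Of the lower genes that met the ranking rules given above, Wdr82, part of a histone methyltransferase complex, came first by unadjusted p. Wdr82 was chosen after the values were seen. It stood at 18.65, 20.03 and 19.54 CPM in CON 6, MIA 6 and MIA 7, against 20.02 to 30.29 CPM in the retained libraries. Its log2 difference was -0.42, and MIA 6 overlapped the lowest retained library, CON 5. Dcx, doublecortin of migrating young neurons, was at 2.38, 4.72 and 3.15 CPM. The retained CON libraries had 2.85 to 7.18 CPM of Dcx and the retained MIA libraries 5.75 to 13.9 CPM, so each excluded library lay below all retained libraries of its own group. The neuronal list had a median log2 difference of -0.33, with 2 of 15 genes lower at the unadjusted p. Lrrc38, called by DESeq2 with an adjusted p of 0.0122, had 0 counts in all 3 excluded libraries, against 0.0876 to 1.894 CPM in the retained ones.

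The second question was whether the control library and the MIA libraries departed from their own groups in the same way. They did not: endothelial genes were higher in CON 6 and lower in MIA 6 and MIA 7, each against the retained libraries of the same group, and microglial genes showed the reverse. In a fit with 4 groups, the interaction, which is the MIA difference minus the CON difference, was called for 110 of 16787 genes by edgeR at an adjusted p under 0.05. Of these, 97 (0.578% of genes tested) were below 0 and 13 (0.0774%) were above 0. The control side is a single library, and the count was 0 without MIA 6 and 1 without MIA 7. It was 20 to 68 without any 1 of CON 2, CON 3, CON 4, MIA 3, MIA 4 and MIA 5, 180 without MIA 2 and 272 without CON 1.

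Cldn5, the main tight junction protein of brain endothelium, showed the opposed pattern. The retained CON libraries held 387.5, 516.6, 694.4, 596.3 and 737.2 CPM and the retained MIA libraries 1306, 1347, 2310, 1619 and 1867 CPM. CON 6 stood at 1440 CPM, above every retained CON library and inside the MIA range, while MIA 6 and MIA 7 stood at 1071 and 1139 CPM, below every retained MIA library. The additive log2 difference was 0.26 ± 0.33 (SE), against 1.30 in CON alone and -0.61 in MIA alone. The interaction for Cldn5 was -1.91 with an edgeR adjusted p of 0.0502, just past the threshold, so it was not called.

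Esam, an endothelial adhesion molecule, stood at 78.08 to 111.9 CPM in retained CON libraries, 227.8 in CON 6, 212.8 to 358.1 in retained MIA libraries, and 182.6 and 198.6 in MIA 6 and MIA 7. Its interaction was -1.72 (edgeR adjusted p = 0.0249). Slc22a8, an organic anion transporter of the barrier, stood at 53.14 to 72.48, 123.6, 131.9 to 187.8, and 98.6 and 100.7 CPM in the same order, with an interaction of -1.68 (edgeR adjusted p = 0.0131). For both genes CON 6 lay above all retained CON libraries, and MIA 6 and MIA 7 lay between the retained groups.

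The 13 endothelial genes followed this as a list. In CON 6 all 13 were higher than in retained CON libraries, with a median log2 difference of 1.02. In MIA 6 and MIA 7 together all 13 were lower than in retained MIA libraries, with a median of -0.48. The interaction was called for 4 of the 13: Esam, Flt1 and Pecam1, all surface proteins of endothelium, and Slco1c1, the thyroid hormone transporter of the barrier. The Slco1c1 call held in 6 of 23 alternatives (edgeR, limma-voom or DESeq2 adjusted p up to 0.246) and that of Pecam1 in 14 of 23. In the additive comparison the opposite differences left a median of 0.20 with none of the 13 at an unadjusted p under 0.05. In mean log2 CPM the excluded libraries, at 6.83, 6.64 and 6.78, were above the retained CON libraries (5.50 to 5.97). MIA 6 and MIA 7 were below the retained MIA libraries (6.80 to 7.53), and CON 6 was just above the lowest of these.

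**Figure D3:**
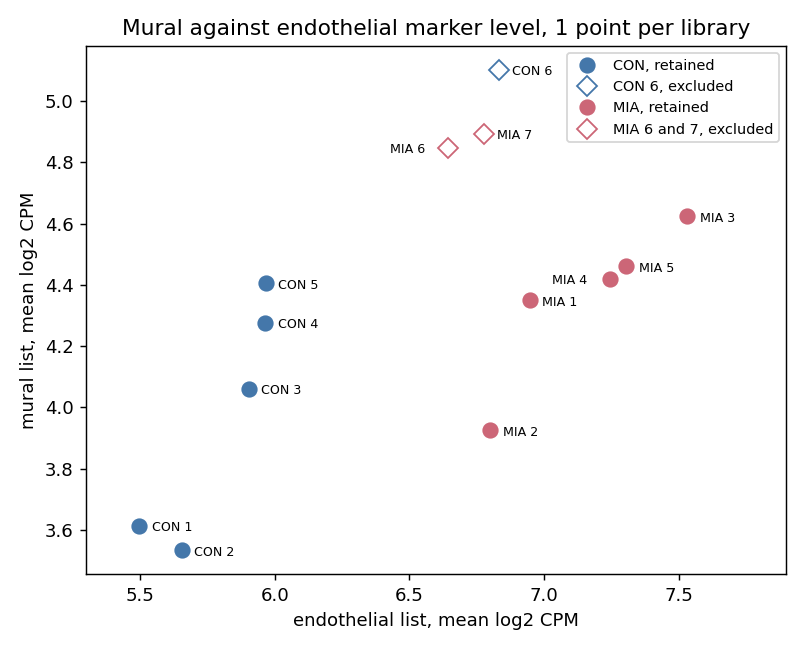
Mean log2 CPM of the 14 mural genes against that of the 13 endothelial genes, 1 point per library, with filled circles for retained and open diamonds for excluded libraries. The 3 diamonds lie at mural levels of 4.85 to 5.10, above all circles, and at endothelial levels of 6.64 to 6.83, right of the CON circles and left of most MIA circles.

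The 14 listed mural genes were positive in CON 6 and in MIA 6 and MIA 7 alike, with a median log2 difference of 1.12 in CON 6 and 0.49 in MIA 6 and MIA 7. The median of their interaction was -0.56. edgeR called the interaction for 0 of the 14, which at a background of 0.578% and 0.0774% of genes does not show that the sizes were alike. Notch3 was the only mural gene with an unadjusted p under 0.05 for it, beside 1829 of all genes tested.

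Further genes below 0 in the interaction were taken by rank after their values were seen. Sema6a, a guidance receptor ligand, had the value -1.68 ± 0.22 (SE; edgeR adjusted p = 0.0131). It stood at 23.78 to 30.28 CPM in retained CON libraries and 52.77 in CON 6, and at 58.56 to 73.89 CPM in retained MIA libraries, 36.32 in MIA 6 and 49.16 in MIA 7. Foxf2, a transcription factor of brain mural cells, had -1.94, Adgrf5, an adhesion receptor of endothelium, -1.80, and Osmr, the oncostatin M receptor, -1.62. Slc2a1, the glucose transporter of the barrier, had -1.37 with an edgeR adjusted p of 0.0264, and Gap43, a growth cone protein of neurons, -1.79. In each of these the departure from the group was upward in CON 6 and downward in MIA 6 and MIA 7.

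Microglial genes ran the other way. Siglech, a sialic acid receptor of microglia, stood at 685.6 to 823.6 CPM in retained CON libraries and 549.4 in CON 6. In retained MIA libraries it stood at 423.8 to 532.4 CPM, and in MIA 6 and MIA 7 at 689.6 and 694.4. CON 6 was below every retained CON library, MIA 6 and MIA 7 were above every retained MIA library, and the interaction was 0.97 (edgeR adjusted p = 0.0308).

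Itgam, which encodes CD11b, the protein the beads bind, showed the same order. It stood at 450.6 to 536.3 CPM in retained CON libraries and 365.8 in CON 6, and at 292.1 to 366.7 CPM in retained MIA libraries, 408.1 in MIA 6 and 441.1 in MIA 7. Its interaction was 0.81 (edgeR adjusted p = 0.0495) and was called in 8 of 23 alternatives, with an adjusted p of up to 0.205. Cxcl16, a chemokine made by macrophages, had 1.54 (edgeR adjusted p = 0.0131) and was the only gene called lower in CON 6, at 13.52 CPM against 27.72 to 31.28 in retained CON libraries.

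All 15 homeostatic microglial genes were lower in CON 6 (median log2 difference -0.38) and higher in MIA 6 and MIA 7 (0.33) than in the retained libraries of their groups. The 15 complement and phagocytosis genes did the same, with medians of -0.25 and 0.39. The interaction was called for 1 gene in each list, Siglech and Itgam. The homeostatic list stood at 9.43 in CON 6, 9.57 in MIA 6 and 9.65 in MIA 7 in mean log2 CPM, while the retained CON libraries ran from 9.63 to 10.03 and the retained MIA libraries from 9.04 to 9.42. CON 6 and the excluded MIA libraries were thus nearer to each other than the retained groups were.

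**Figure D4:**
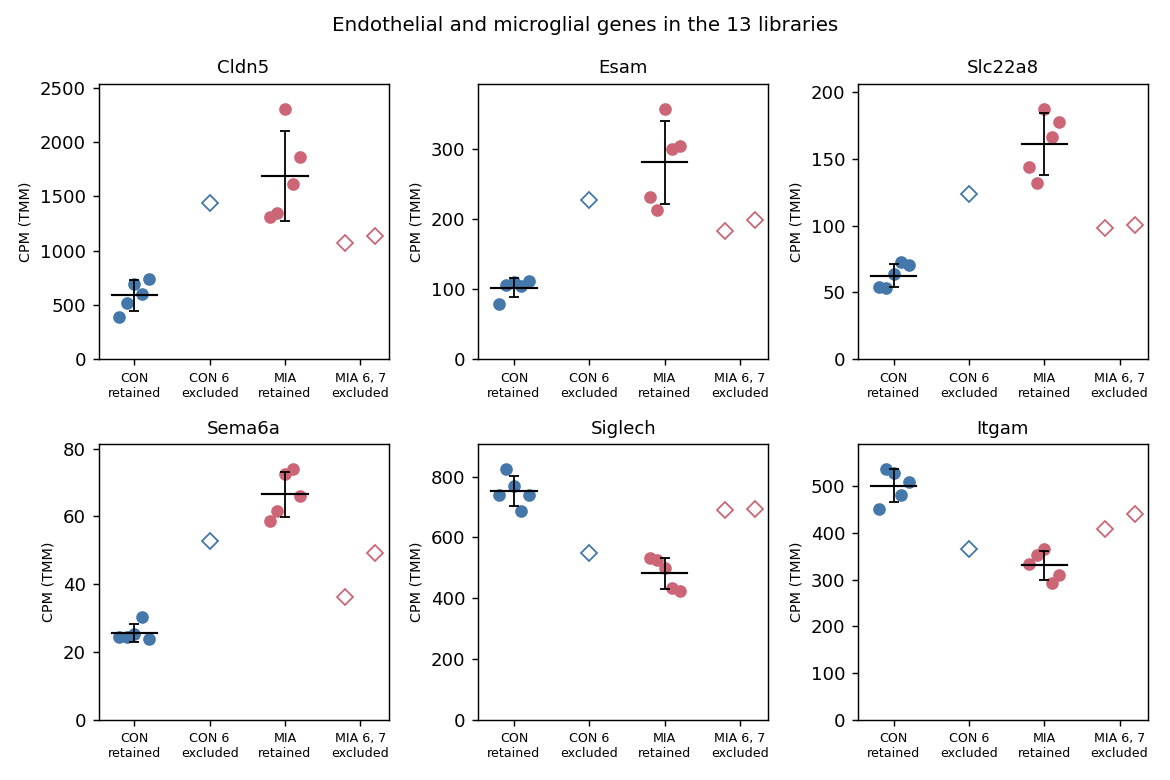
CPM (scaled by TMM) of 4 vascular and 2 microglial genes in the 13 libraries, with circles for retained and open diamonds for excluded libraries, and the horizontal line and bar giving the mean and SD of 5 retained libraries. In each panel CON 6 departs from the CON circles toward the MIA circles, and MIA 6 and MIA 7 depart from the MIA circles toward the CON circles.

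Within groups, the same fit called 40 genes for CON 6 against retained CON libraries, 39 higher (0.232%) and Cxcl16 lower. Among those higher were Ly75, an endocytic receptor (log2 difference 1.43, edgeR adjusted p = 0.0242), Osmr (1.21) and Tsc22d1 (1.08). The lone library is assumed there to vary like the other groups. The count was 0 to 10 without any 1 of CON 2, CON 3, CON 4, MIA 1, MIA 4, MIA 5, MIA 6 and MIA 7, and 61 without CON 1. When the spread came from the retained libraries alone, edgeR called 0 genes for CON 6, with 1224 at an unadjusted p under 0.05, and DESeq2 called 166; without CON 1 edgeR called 30, and without MIA 2 it called 4. For MIA 6 and MIA 7 together edgeR called 0 genes (0%), with 1150 at an unadjusted p under 0.05, limma-voom called 0 and DESeq2 50.

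The third question was whether the excluded libraries repeat the difference between MIA and CON seen in the retained ones. No library is shared between these comparisons, but this is no separate result from the interaction, which is the MIA minus CON difference in excluded libraries less that in retained ones. In the 10 retained libraries edgeR called 1602 of 15511 genes (10.3%), 892 higher and 710 lower in MIA. Without MIA 4 or MIA 5 it called 1057 or 1037. Nearly all genes called for the interaction were among the 1602, and both tests use the retained libraries. For the 892 genes the median MIA minus CON difference was 0.99 on the log2 scale in retained libraries and -0.14 between MIA 6 and MIA 7 and CON 6. Of these genes 266 (29.8%) were positive in the excluded libraries, and 877 had a difference of smaller size there, beside 7928 of all 15511 genes.

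For the 710 genes lower in MIA the medians were -0.44 in retained and 0.072 in excluded libraries, and 487 of them (68.6%) were positive in the latter. Over all 15511 genes the excluded libraries had a median of -0.015, with 48% positive. For the 892 genes the quartiles of the excluded difference were -0.31 and 0.038. The genes were chosen by the retained difference, which favours large values there, and the excluded difference rests on CON 6 as its only control.

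**Figure D5:**
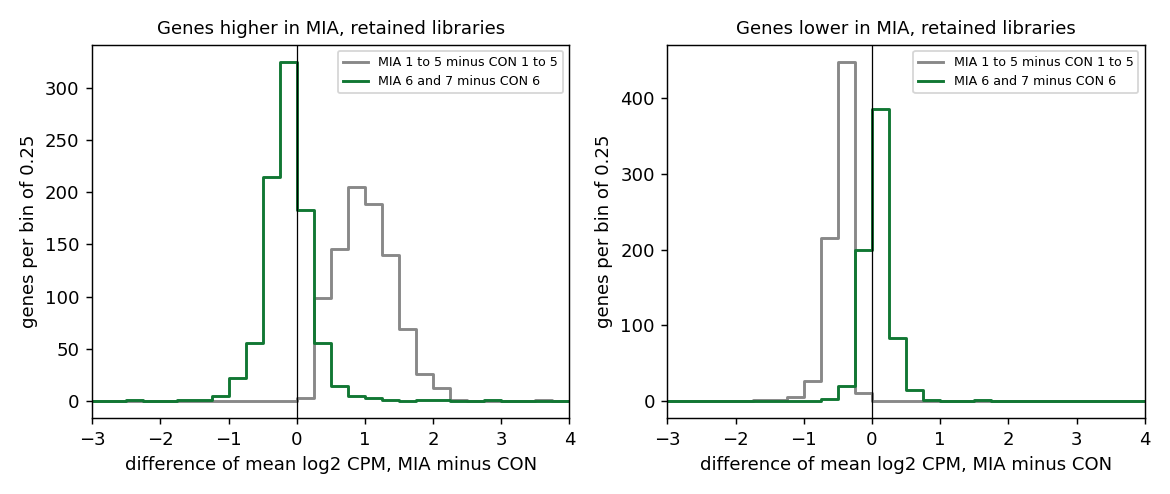
Number of genes per bin of 0.25 of the MIA minus CON difference in mean log2 CPM, in retained libraries (grey) and between MIA 6 and MIA 7 and CON 6 (green), for the 892 genes called higher (left) and the 710 called lower in MIA (right) in the retained libraries. The green curves centre near 0, at medians of -0.14 and 0.072, while the grey curves centre at 0.99 and -0.44.

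Transcripts of other cells and of RNA quality moved with some of these results, and their part in them was not tested. The 13 mitochondrial genome transcripts had a median log2 difference of -0.31 between excluded and retained libraries, with 13 of 13 negative. MIA 6 and MIA 7 together had 13 of 13 negative and a median of -0.49, while CON 6 had 8 of 13 positive and a median of 0.068. MIA 6 was the lowest of all libraries at 7.55 in mean log2 CPM against 8.01 to 8.74 in the other 12. Erythroid genes stood at 0.80 and 1.22 in CON 1 and CON 2 and at 4.96 to 6.46 in the other 11, the excluded ones included.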

How the data were processed

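For the 13 libraries the authors deposited gene-level expected counts, which are estimates and can be fractions, with no scaling between libraries. RSEM, STAR and DESeq2 are named in the submitters' processing notes without roles or versions; the sources used here do not state the genome build, the annotation or the batch. Of the nonzero values 20.6% were not whole, and all were rounded. Of 55487 gene IDs 54349 matched a symbol exactly and 55141 with or without the version. The library kit does not mark strand, so overlapping antisense genes cannot be told apart.

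Samples were grouped by their titles. After filterByExpr and TMM, robust quasi-likelihood models were fitted with edgeR 4.0.16 (R 4.3.3): excluded or retained plus group over 13 libraries, the 4 groups with their interaction, and 1 term per excluded library. The threshold was a Benjamini-Hochberg adjusted p of 0.05 over all genes tested. DESeq2's own filter gives no adjusted p to some genes, so its counts rest on fewer genes. CPM values are scaled by TMM, and log2 CPM uses a prior count of 2. A library's list level is the mean log2 CPM over measured genes. The SE is the absolute log2 value divided by the square root of F. Library measures were compared with 2-sided exact permutation tests within groups. The MIA against CON contrast used the 10 retained libraries alone. Reads carried no molecular identifiers.

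The libraries, the marker genes, the lists and the tests were chosen with earlier results of these data known. The naming rule took Rgs5, Col1a1, Cldn5 and Mrc1, genes past the threshold with a mean of at least 5 CPM (none in the additive comparison), list members that passed and up to 4 abundant members of each list. Genes named by rank were added after their values were seen. Alternatives were other scalings, filters, limma-voom (limma 3.58.1), DESeq2 1.42.0, a non-robust fit, a replicate block and leaving out libraries. The block, the left-out libraries and the non-robust fit outside the additive comparison were chosen after seeing the data. On simulated data for the additive comparison (16347 genes) the test recovered 43.3% of genes changed 2-fold and 77.3% of those changed 4-fold, with 3.81% of 105 calls false. For the interaction (16350 genes) it recovered 4.48% and 33.3%, with 0% of 25 calls false. The simulated spread came from the additive fit, and genes were drawn independently in a single run per comparison. These shares therefore need not hold for the calls reported here.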

Additional observations from a re-analysis of the deposited data

Results flagged for a closer look

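The 78 checks asked whether 1 library stood far from the others of its group (a large gap relative to the group's range). In 7 it did, where chance gives about 1 in 20, or 3.9. The checks overlap, because Cldn5 belongs to the endothelial list and Mrc1 to the border-associated macrophage list. The 7 can therefore not be set directly against 3.9. Of the 7 flags, 3 concern CON 6 among the 6 CON libraries. Its endothelial list level was 6.83 in mean log2 CPM against 5.50 to 5.97 in the others. Its Cldn5 was 1440 CPM against 387.5 to 737.2, and its Col1a1 was 89.2 CPM against 53.58 to 63.85. MIA 6 and MIA 7 were not set apart in any of the 78 checks, but a check for 1 library can miss 2 that depart together. Both lay outside the retained MIA range in the mural list (4.85 and 4.89 against 3.93 to 4.62). The same held in the endothelial list (6.64 and 6.78 against 6.80 to 7.53). The other 4 concern retained libraries. CON 1 was lowest of the CON libraries in the early postnatal microglial list (7.43) and in the cell cycle list (6.10), and MIA 3 was lowest of the MIA libraries in the border-associated macrophage list (5.77) and in Mrc1 (419 CPM).

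The departure of the excluded libraries from their groups differed between CON and MIA for 110 genes, by edgeR's interaction test at an adjusted p under 0.05. Among endothelial and barrier genes the log2 interaction was -1.72 for Esam, -1.47 for Flt1, -1.44 for Pecam1, -1.43 for Slco1c1, -1.68 for Slc22a8, -1.37 for Slc2a1 and -1.80 for Adgrf5. Among the other genes below 0, it was -1.94 for Foxf2, -1.70 for Sh3bp4, -1.70 for Ly75, -1.68 for Sema6a, -1.62 for Osmr, -1.49 for Ecm1, -1.44 for Tsc22d1 and -1.79 for Gap43. The genes above 0 included Cxcl16 at 1.54 and the microglial genes Siglech at 0.97 and Itgam at 0.81.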

How the results depend on the processing

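The additive comparison of excluded with retained libraries gave 0 calls under every scaling, filter and left-out library tried with edgeR on both groups, 3 within MIA only and 4 with DESeq2. Counts of the other comparisons depended on the method. The 110 interaction calls became 59 with limma-voom, 63 with a non-robust fit, 210 with a strict filter and 480 with DESeq2. The 40 calls for CON 6 in the fit with 4 groups became 0, 2, 73 and 200 under the same settings, and 61 with no filter. With the spread from retained libraries alone, CON 6 had 0 calls, against 1 with upper quartile scaling, 6 with total counts, 37 with no filter, 43 with a strict filter and 166 with DESeq2. DESeq2 called 50 genes for MIA 6 and MIA 7 together, 14 for MIA 6 and 4 for MIA 7, where edgeR called 0. DESeq2 gave no adjusted p to 15947 of 16787 genes for MIA 6 and MIA 7 together and for MIA 6, to 5860 for the interaction, and to 5212 and 5210 for CON 6 in the respective fits. Without CON 1 and CON 2 the interaction had 339 calls, CON 6 alone 16, the excluded MIA libraries 5 and MIA 6 alone 1.

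Leaving out 1 library gave 0 to 272 interaction calls, 0 to 61 for CON 6 with 4 groups, 0 to 30 for CON 6 alone and 1037 to 2263 for MIA against CON in the retained libraries. The number of mural genes above all retained libraries was 9 to 11 without 1 of CON 6, MIA 6 and MIA 7; single retained libraries were not left out for it. The Cldn5 log2 difference turned to -0.61 within MIA only and to -0.61 without CON 6, and was 0.56 without MIA 6. The Mrc1 difference, near 0 throughout, turned to -0.053 within CON only, -0.052 without MIA 3 and -0.058 without MIA 6, and was at most 0.103. The difference in total counts turned from -1478000 to 373400 without CON 6, and was -3413000 without MIA 6. The causes of these changes were not tested.

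With a replicate block the interaction had 112 calls and the retained MIA against CON contrast 1524. Same-numbered deviations correlated at 0.0507 to 0.251, and 2 of 5 numbers matched best. So few numbers cannot show whether same-numbered libraries share a litter or a batch, which the sources used here do not state. No paired analysis was possible because, for excluded against retained libraries, numbers 1 to 5 are all retained and 6 and 7 all excluded. The single excluded CON library limits every statement on CON 6.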

Other observations

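In other programs of microglia edgeR called no gene in the additive comparison. All 14 early postnatal and disease-associated microglial genes had positive log2 differences, with a median of 0.32 and 3 of the 14 higher at an unadjusted p under 0.05. Over all 16787 genes tested, 8203 were positive and 1.36% were higher at that edgeR p. The list stood at 8.59 in CON 6, inside the retained CON range of 7.43 to 8.85 in mean log2 CPM. In MIA 6 and MIA 7 it stood at 8.58 and 8.43, above the retained MIA range of 7.69 to 8.15. Its median log2 difference was 0.52 in MIA 6 and MIA 7, where the mural list had 0.49, and 0.17 in CON 6. Glycolysis and hypoxia genes were positive in 18 of 19 cases with a median of 0.16.

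Neuronal genes were lower in MIA 6 and MIA 7 than in the retained MIA libraries for 15 of 15 members, with a median log2 difference of -0.73, and had a median of 0.23 in CON 6. Their list level was 1.64 and 1.37 in MIA 6 and MIA 7 against 1.97 to 2.48 in the retained MIA libraries, with no overlap. Neutrophil genes were lower in CON 6 for 10 of 10 members (median -0.89) and higher in MIA 6 and MIA 7 for 10 of 10 (median 0.57). Of all 16787 genes, 9057 were lower in CON 6, and 7814 were higher and 8973 lower in MIA 6 and MIA 7. Some neutrophil members were near the floor, such as Elane and Mpo at means of 0.384 and 1.463 CPM. The list level was 1.38 in CON 6 against 1.69 to 3.58 in retained CON libraries, a wide range. It was 3.00 and 2.51 in MIA 6 and MIA 7 against 1.04 to 2.11 in retained MIA libraries. Cytosolic ribosomal protein genes were negative for 84 of 84 members in the additive comparison, with a median of -0.10. Of all 16787 genes, 8584 were negative and 8203 positive. Only 1 of the 84 was lower at an unadjusted p under 0.05 by edgeR. Their list levels in the excluded libraries (7.71 to 7.73) lay inside the range of all 10 retained libraries, 7.67 to 7.97. Within its group CON 6, at 7.72, lay below all 5 retained CON libraries (7.74 to 7.97). In CON 6, 79 of 84 members were lower, with a median log2 difference of -0.19. MIA 6 and MIA 7, at 7.71 and 7.73, lay inside the retained MIA range of 7.67 to 7.93. There 71 of 84 members were lower, with a median of -0.053.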
